A study of Mus musculus with 6 samples.

Results

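The genes described here mark the blood vessels of the brain: 19 genes of endothelial identity, 8 genes of the endothelial barrier and its transporters, and 8 genes of the mural cells that wrap the vessel wall. Every non-control probe on the array that carried one of the 35 gene names was taken, which gave 64 of 41174 probes and 35 of 21156 gene names. RNA was measured in whole prefrontal cortex of BTBR and C57BL/6J mice, 3 per strain, with 1 array per mouse. BTBR mice lack the corpus callosum, show little social approach and serve as a model of autism, and C57BL/6J mice served as controls. All 6 mice were males of 5 months, kept in standard cages with no drug treatment, and RNA integrity was 9 in the labels. BTBR mice carried the genotype BTBR T+ Itpr3tf/J, while the strain background field of the same samples reads C57BL/6J.

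Brain capillaries are lined by endothelial cells that are sealed to each other by tight junctions and carry few vesicles, so that most solutes cross only through transporters in the cell membrane. Pericytes lie on the outer face of capillaries in a shared basement membrane and help to maintain this barrier, while smooth muscle cells surround arterioles and set their diameter. Endothelial identity is maintained by transcription factors of the ETS and SOX families, and the vessel wall is stabilised by signalling through VEGF, angiopoietin and PDGF receptors.

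Levels are log2 signals relative to the 75th percentile of the array's own probes, so 0 is that percentile and a step of 1 is a doubling. Each array showed 28100 to 30665 probes well above background (68.2% to 74.5%), and the 75th percentile lay between 859 and 1607 signal units. The test took the 30011 probes that 3 or more of the 6 arrays, of either strain, measured well above background. Marker lists of neighbouring tissues set some arrays apart: C57BL/6J 3 had the highest striatal marker score (2.51) and smooth muscle score (0.86), BTBR 2 the highest blood score (3.48), BTBR 3 the highest pituitary score (4.54) and C57BL/6J 1 the highest choroid plexus score (2.55). A score is the median log2 deviation of a marker list from its mean over the 6 mice. The oligodendrocyte list, with all 7 genes measured, summed to 7.11 to 7.42 in C57BL/6J and to 6.66 to 6.83 in BTBR on the log2 scale, without overlap. The meningeal fibroblast list scored 0 to 0.24 in C57BL/6J and -0.19 to -0.08 in BTBR, also without overlap. Its sums, 3.28 to 3.58 and 3.20 to 3.40, overlapped. The part of these differences in the results below was not tested, beyond leaving out C57BL/6J 3 and BTBR 2.

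All 35 genes had at least 1 tested probe, and 56 of the 64 probes were tested. Of the tested probes, 54 were well above background on all 6 arrays. The remaining 8 probes, which belong to Flt1, Kdr, Pecam1, Sox17, Vwf, Ocln and Acta2, were well above background on 0 arrays (6 probes) or on 1 or 2 (2 probes), and each of these genes had another probe that was measured. The labelled tissue held vessels by this measure: all 9 endothelial markers and all 6 pericyte markers were detected on every array by their brightest probe. The summed endothelial level was 5.02 to 5.19 in C57BL/6J and 5.05 to 5.23 in BTBR, and the summed pericyte level was 4.28 to 4.40 and 4.18 to 4.34. The ranges overlapped between strains in both lists. All genes of both lists are members, and bright genes weigh most in a sum, so the sums are no separate measure of vessel content. In RNA of whole tissue, fewer cells of a type and less RNA per cell cannot be told apart.

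Most vessel gene probes did not pass the test of a strain difference, and 4 genes had a probe that did. The passing probes of Slco1c1, Ets1 and Abcc9 were higher in BTBR, and that of Fli1 was lower. The other tested Ets1 probes differed by 0.16, -0.13 and -0.25. With only the brightest probe of each gene tested, those of Fli1 and Slco1c1 passed and those of Ets1 and Abcc9 did not. Of the 56 tested probes, 5 (8.93%) passed an adjusted p of 0.05 in the limma fit with Benjamini-Hochberg adjustment over all probes, against 5.44% of all 30011 probes. The passing probes were 4 higher and 1 lower in BTBR, where the background was 2.19% higher and 3.25% lower. Leaving out BTBR 1 reduced the 5 probes to 2, and leaving out C57BL/6J 1 reduced them to 3. The share of all probes that passed was 2.86% and 3.17% in these fits. With normexp background correction in place of the scanner's own 0 passed, where 0.566% of all probes did. In that fit 9 member probes had an unadjusted p under 0.05, and the share over all probes was not counted. Small differences leaned downward: 38 of 56 probes (67.9%) had a lower mean in BTBR, against 42.8% of all probes, and the median log2 difference was -0.14 against 0.04. With normexp these medians were -0.14 and -0.09, so the distance between them depended on the background correction. The 6 untested member probes above background on 0 arrays differed by -0.32 to -0.41 with normexp. Signals at background level were thus also lower in BTBR in that setting, and the part of this in its results was not tested. The 3 values of 1 strain lay wholly apart from those of the other in 22 probes (39.3%), 10 with BTBR above and 12 with BTBR below. Over all probes this share was 22.8%, with 11.9% above and 11% below. Probes of a gene share their target, so these shares do not count independent observations.

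**Figure D1:**
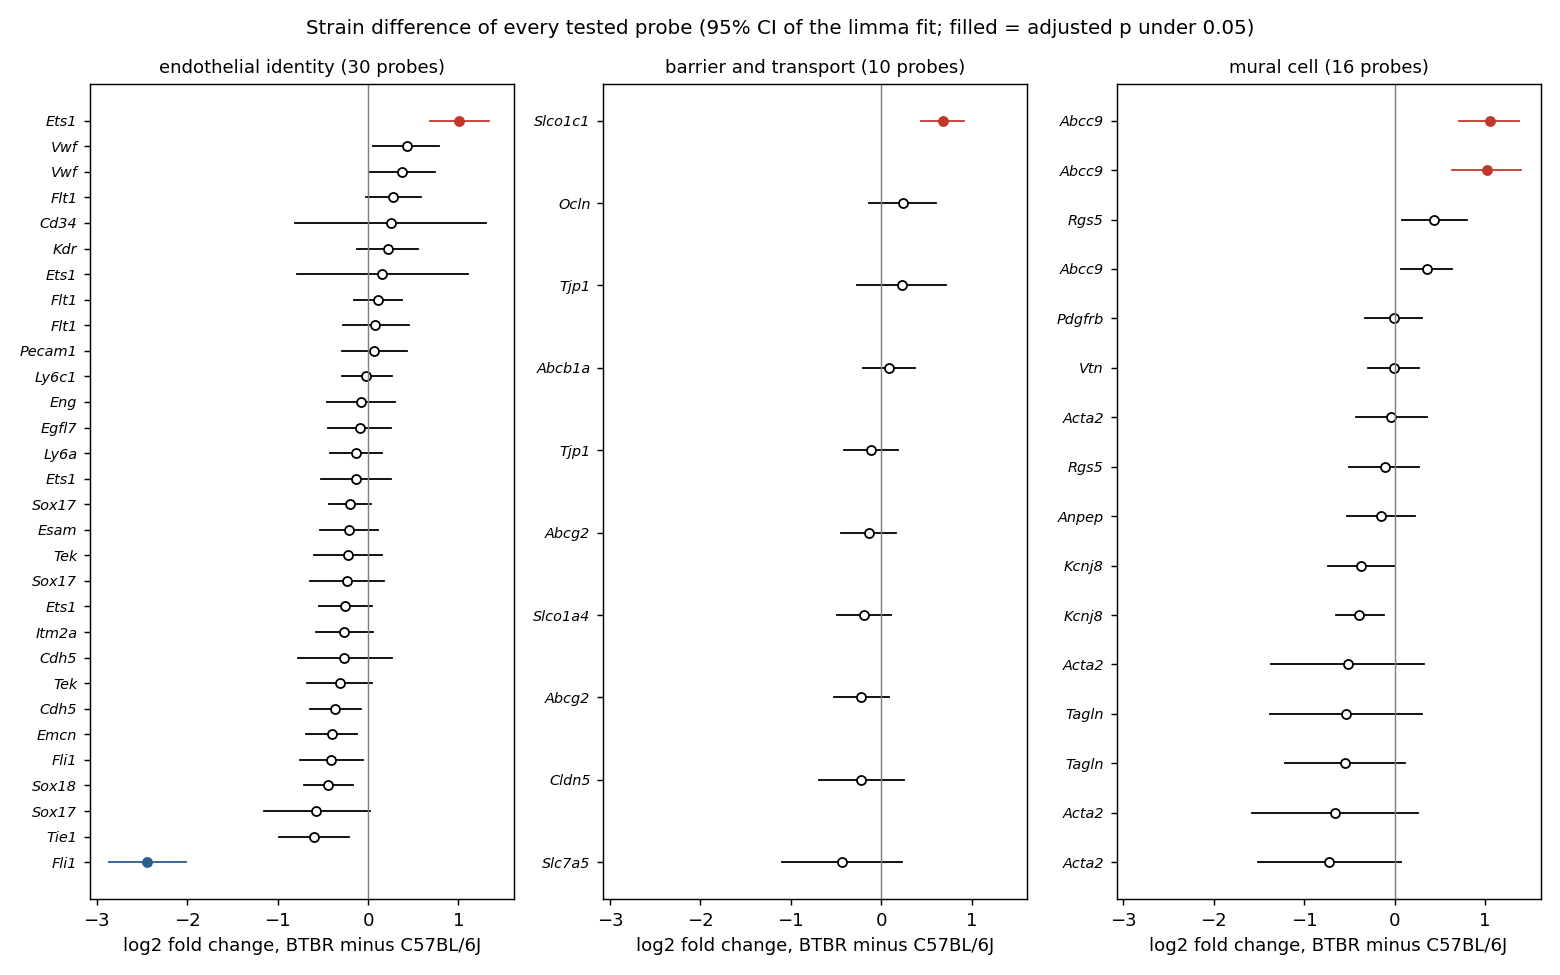
Log2 fold change of BTBR against C57BL/6J for each of the 56 tested probes, 1 row a probe, in 3 panels by role; bars are 95% confidence intervals of the limma fit and filled points have an adjusted p under 0.05. Most points lie slightly left of 0, and the filled ones are Ets1 (1.01), Fli1 (-2.44), Slco1c1 (0.68) and 2 probes of Abcc9 (1.05 and 1.02).

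Among the endothelial identity genes, 2 of 30 tested probes passed (6.67%, near the 5.44% of all probes), Fli1 lower and Ets1 higher, and the median difference was -0.17, against 0.04 over all probes. Without BTBR 1 the count was 1, where 2.86% of all probes passed. Their transcription factors are described first. Fli1 is an ETS family factor of endothelial and blood lineages. Its probe A_51_P370600 (chr9:32231283-32231342, mm9, minus strand) read -1.21, -1.57 and -1.07 in the C57BL/6J mice and -3.76, -3.49 and -3.90 in the BTBR mice. All BTBR values lay far below all C57BL/6J values. The means were -1.28 ± 0.26 and -3.72 ± 0.21 (SD, n = 3 each), a log2 difference of -2.44 ± 0.18 (SE) or 5.41-fold lower signal in BTBR (limma adjusted p = 0.000753). It was the largest difference of any member probe. The difference was -2.24 on the slide that held mice 1 and 2 of each strain, and -2.84 on the slide that held mouse 3.

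The second Fli1 probe, A_52_P821 (chr9:32229857-32229916, minus strand), lies in the same gene and differed less between strains. It read -2.43, -2.38 and -2.20 in C57BL/6J and -2.83, -2.51 and -2.90 in BTBR. BTBR was again below C57BL/6J with no overlap, by -0.41 ± 0.14, which did not pass (adjusted p = 0.212). The difference between the probes in their strain effect was -2.03, the largest among the 30 probe pairs of the 14 genes with several tested probes. An exact two-sided permutation test over mice gave p = 0.1, the smallest that 3 against 3 allows, and 0.333 adjusted over the 30 pairs. The probes target separate stretches of the gene, and their opening bases are shown to tell them apart, with none marked:
Fli1 A_51_P370600: ttctggctgaagttccagctctcactttac
Fli1 A_52_P821: ttttcaggtaatcgtgactttttaaacgat
With normexp, the difference of A_51_P370600 was -1.75 and did not pass (adjusted p = 0.0682). In the authors' deposited values, whose strain differences are smaller over all probes, it was -1.18 and passed (adjusted p = 0.00119).

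Ets1, another ETS factor that acts in vessel formation and in lymphocytes, had 4 tested probes, and 1 of them passed. Probe A_52_P232830 (chr9:32561826-32561885, mm9, plus strand) read -2.67, -2.50 and -2.39 in C57BL/6J and -1.35, -1.47 and -1.70 in BTBR. All BTBR values were higher. The difference was 1.01 ± 0.14, or 2.02-fold (adjusted p = 0.00968), with 1.17 and 0.69 on the separate slides. It did not pass with normexp (0.66, adjusted p = 0.536) or without BTBR 1 (0.93, adjusted p = 0.0509), and was 0.62 in the authors' deposited values (adjusted p = 0.00415).

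The other Ets1 probes did not show the increase. A_52_P258291 read -3.85, -3.92 and -3.78 in C57BL/6J and -3.93, -4.12 and -4.25 in BTBR, a difference of -0.25 ± 0.12 (adjusted p = 0.379). Here BTBR was the lower strain, without overlap. A_52_P194250 differed by -0.13 ± 0.16 (adjusted p = 0.775). Between A_52_P232830 and these probes the strain effect differed by 1.26 and 1.15 in size, each with an exact permutation p of 0.1 and 0.333 after adjustment.

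The remaining Ets1 probe, A_51_P329043, overlaps the one that passed and was designed on another transcript record, with no genome position in the files. The pair share 50 bases, of which 46 are identical and 4 differ. The differing bases are in capitals:
Ets1 A_52_P232830: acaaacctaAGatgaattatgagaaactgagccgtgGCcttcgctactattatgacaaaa
Ets1 A_51_P329043: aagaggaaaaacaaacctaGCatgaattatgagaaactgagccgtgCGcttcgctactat
A_51_P329043 read -6.18, -6.79 and -6.44 in C57BL/6J and -6.09, -7.18 and -5.65 in BTBR, and was well above background on 4 of 6 arrays. The strains overlapped (0.16 ± 0.39, adjusted p = 0.906).

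The SOX factors, which act in arterial and lymphatic endothelium, all had lower means in BTBR without passing the test. Sox18 read -0.47, -0.53 and -0.27 in C57BL/6J and -0.88, -0.89 and -0.82 in BTBR. The BTBR mice lay close together and below all C57BL/6J mice (-0.44 ± 0.11, adjusted p = 0.0903). Sox17 had 3 tested probes with differences of -0.20, -0.23 and -0.57. The first of these, A_51_P273667, read -0.32, -0.36 and -0.27 against -0.52, -0.55 and -0.49, again without overlap (adjusted p = 0.366). The last, A_52_P365096, was well above background on 3 C57BL/6J arrays and 0 BTBR arrays, at 7.64 to 31 signal units. It entered the test through C57BL/6J alone, so the size of its difference is not measured.

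Of the receptors, Tie1 showed the largest difference. Tie1 is the orphan receptor that modulates angiopoietin signalling through Tek. It read -1.59, -1.18 and -1.25 in C57BL/6J and -1.89, -2.14 and -1.79 in BTBR. BTBR was lower in every mouse, by -0.60 ± 0.16, or 1.51-fold (adjusted p = 0.103). Tek itself, the angiopoietin receptor, differed by -0.22 and -0.31 on 2 probes with overlapping strains. No probe of the VEGF receptors passed: the 3 tested probes of Flt1, a decoy-like VEGF receptor, differed by 0.11, 0.28 and 0.08, and the tested probe of Kdr, the main signalling receptor for VEGF, by 0.22. Flt1 probe A_52_P307922 read 0.97, 0.79 and 0.98 in C57BL/6J and 1.26, 1.32 and 1.02 in BTBR, without overlap (adjusted p = 0.333). Eng, a coreceptor for TGF-beta ligands, differed by -0.08.

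Adhesion and surface genes of the endothelium did not pass in any probe. Emcn, a sialomucin of capillaries and veins, read 0.73, 0.47 and 0.68 in C57BL/6J and 0.21, 0.15 and 0.31 in BTBR. BTBR was lower in every mouse (-0.40 ± 0.12, adjusted p = 0.133). Cdh5, the cadherin of endothelial adherens junctions, read -1.43, -1.44 and -1.46 against -1.68, -1.98 and -1.73 on probe A_52_P248604. This too was without overlap (-0.36, adjusted p = 0.183), and its other probe differed by -0.26 with overlap.

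Itm2a, a membrane protein gene enriched in brain endothelium, read 3.07, 3.07 and 3.00 in C57BL/6J and 2.88, 2.93 and 2.57 in BTBR (-0.26, adjusted p = 0.402). BTBR was the lower strain in every mouse. Vwf, which encodes the clotting protein von Willebrand factor, was the higher in BTBR on both tested probes, neither of which passed. Vwf A_51_P103397 read 2.40, 2.11 and 2.58 against 2.64, 2.91 and 2.81, and A_51_P103406 read -0.19, -0.23 and 0.23 against 0.25, 0.31 and 0.38. The differences were 0.43 (adjusted p = 0.228) and 0.38 (adjusted p = 0.274), without overlap in either.

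The other endothelial genes had overlapping strains. Pecam1, an adhesion molecule of endothelial contacts, differed by 0.07, Esam, a junctional adhesion molecule, by -0.21, Egfl7, a secreted factor of endothelium, by -0.09, Ly6a by -0.13 and Ly6c1 by -0.02. Ly6a and Ly6c1 encode surface proteins of the Ly6 family found on mouse brain endothelium. Cd34, a sialomucin of endothelial and progenitor cells, varied most: it read 4.50, 4.04 and 2.75 in C57BL/6J and 4.09, 3.72 and 4.21 in BTBR. C57BL/6J 3 stood far below the other mice, and the difference was -0.36 on the slide of mice 1 and 2 and 1.47 on the slide of mouse 3 (0.25 ± 0.44 over all, adjusted p = 0.86).

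In the barrier and transport group 1 of 10 tested probes passed (10%, against 5.44% of all probes), and the median difference was -0.12. The count of passing barrier probes was 0 without C57BL/6J 1, without C57BL/6J 2 and without BTBR 1. Of all probes, 3.17%, 2.96% and 2.86% passed in these fits. The passing probe was that of Slco1c1, the organic anion transporter that carries thyroxine across the blood-brain barrier. It read 1.60, 1.70 and 1.67 in C57BL/6J and 2.28, 2.40 and 2.31 in BTBR. The mice of each strain lay within a narrow band and all BTBR mice were higher. The means were 1.65 ± 0.05 and 2.33 ± 0.06 (SD, n = 3 each), a difference of 0.68 ± 0.10 (SE), or 1.6-fold (adjusted p = 0.012). It was 0.69 and 0.65 on the separate slides and 0.68 with normexp, where it no longer passed (adjusted p = 0.183). The adjusted p was 0.0546 without C57BL/6J 1, 0.0555 without C57BL/6J 2 and 0.0664 without BTBR 1.

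The Slco1c1 measurement rests on 1 probe, shown here because no other probe of the gene was on the array. Its 60 bases are placed in mm9 at chr6:141511731-141513094 on the plus strand, a span of 1364 bases, so the probe is split over separate genomic blocks. No base is marked:
Slco1c1 A_51_P261713: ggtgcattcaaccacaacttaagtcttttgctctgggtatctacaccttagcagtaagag

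The related transporter Slco1a4, which carries organic anions and bile acids at the same barrier, read 1.08, 1.35 and 1 in C57BL/6J and 0.99, 0.95 and 0.92 in BTBR. BTBR was the lower strain by a narrow margin (-0.19, adjusted p = 0.54), opposite in sign to Slco1c1. Abcg2, an efflux pump of the luminal membrane, differed by -0.14 and -0.22 on 2 probes. The latter, A_52_P336142, read 0.10, 0.34 and 0.03 against 0.02, -0.16 and -0.03, without overlap (adjusted p = 0.475). Abcb1a, which encodes the efflux pump P-glycoprotein, differed by 0.08 with overlap. Slc7a5, the light chain of the large neutral amino acid transporter, read -0.59, -0.60 and -1.53 in C57BL/6J and -1.12, -1.53 and -1.37 in BTBR. C57BL/6J 3 lay at the level of the BTBR mice, and the difference was -0.43 ± 0.28 (adjusted p = 0.529).

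Tight junction genes did not pass. Cldn5, the main claudin of the barrier, differed by -0.22 ± 0.20 (adjusted p = 0.681) with overlap. Tjp1, a scaffold that ties tight junctions to actin, differed by -0.11 on 1 probe and 0.23 on the other. Ocln, which encodes the junction protein occludin, read -2.80, -2.79 and -3.28 in C57BL/6J and -2.71, -2.73 and -2.71 in BTBR on its tested probe. BTBR was just above C57BL/6J in every mouse (0.24, adjusted p = 0.553), and the difference was -0.06 with normexp.

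In the mural group 2 of 16 tested probes passed (12.5%, against 5.44% of all probes), and the median difference was -0.13. Both are probes of 1 gene, Abcc9, and both were higher in BTBR, as were 2.19% of all probes. The count was 1 without C57BL/6J 1 and 1 without BTBR 1, where 3.17% and 2.86% of all probes passed. Abcc9 encodes the sulfonylurea receptor that regulates the ATP-sensitive potassium channel of pericytes and smooth muscle, and Kcnj8 encodes the pore of the same channel. Abcc9 probe A_52_P616224 read -4.62, -4.39 and -4.69 in C57BL/6J and -3.34, -3.57 and -3.65 in BTBR. Probe A_51_P328857 read -3.85, -3.72 and -4.04 against -2.94, -2.59 and -3.02. The strains did not overlap on either, with differences of 1.05 ± 0.14 (2.06-fold, adjusted p = 0.00832) and 1.02 ± 0.16 (2.03-fold, adjusted p = 0.0151).

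The third Abcc9 probe, A_51_P328850, gave the same direction with a smaller size. It read -2.53, -2.46 and -2.75 in C57BL/6J and -2.23, -2.16 and -2.29 in BTBR, with no overlap and a difference of 0.36 ± 0.12 (adjusted p = 0.194). The probes are neighbours on the minus strand, at chr6:142538081-142538140, chr6:142538001-142538060 and chr6:142537737-142537796 in mm9, and their opening bases, with none marked, set them apart as separate targets within the gene:
Abcc9 A_52_P616224: ctctgttcaacaaagagaaagttcaagtta
Abcc9 A_51_P328857: ttatcagccaggcaatgactctgaactctg
Abcc9 A_51_P328850: tacttgggcaaatttcagtgataggcattg
The passing probes are dim, at 46.7 to 94.5 and 73.7 to 146 signal units, and the third reads 179 to 277. With normexp, which adds an offset of 50 units, the differences were 0.15, 0.35 and 0.12, and the adjusted p of both that had passed was 0.962. In the authors' deposited values those probes differed by 0.25 and 0.36 (adjusted p = 0.0328 and 0.0202). A_51_P328857 also missed the threshold without C57BL/6J 1 (adjusted p = 0.0647) and without BTBR 1 (adjusted p = 0.0593).

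Kcnj8, the pore gene, did not pass on either of its probes. Probe A_51_P312795 read 0.92, 0.89 and 0.68 in C57BL/6J and 0.42, 0.45 and 0.46 in BTBR. The BTBR mice were nearly identical and all lower (-0.39 ± 0.11, 1.31-fold, adjusted p = 0.124). Probe A_52_P225898 read -2.88, -3.07 and -3.36 against -3.56, -3.35 and -3.51, a similar difference of -0.37 ± 0.15 (adjusted p = 0.296) with overlap by 1 mouse. The first probe passed in the fit on the authors' deposited values (-0.33, adjusted p = 0.0433) and with array weights (-0.44, adjusted p = 0.017).

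**Figure D2:**
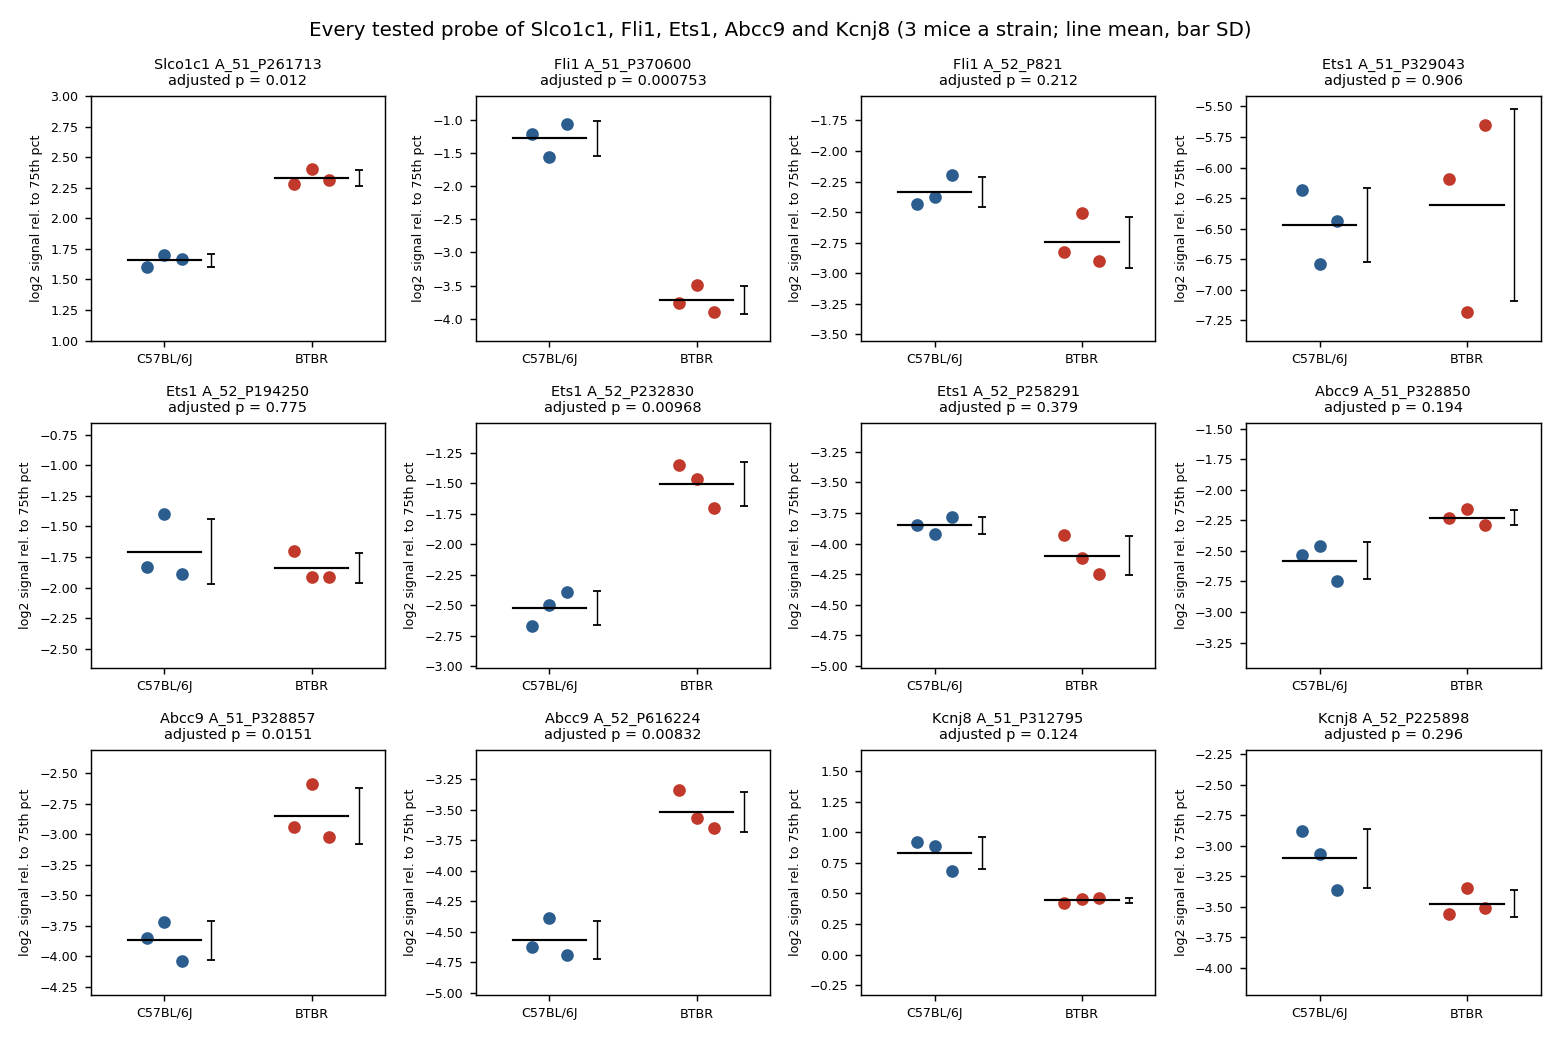
Log2 signal relative to the array's 75th percentile (vertical axis) for every tested probe of Slco1c1, Fli1, Ets1, Abcc9 and Kcnj8, 1 point a mouse, with the strain mean as a line and the SD as a bar; each panel has its own axis range, since levels of different probes are not comparable. Strains lie apart in the 5 probes with an adjusted p under 0.05. They also lie apart in Fli1 A_52_P821, Ets1 A_52_P258291, Abcc9 A_51_P328850 and Kcnj8 A_51_P312795, which did not pass. Between probes of a gene the strain difference varies in size for Fli1 and Abcc9, and in sign for Ets1.

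No probe of the other pericyte genes passed. Pdgfrb, the PDGF receptor that pericytes need to reach the vessel, read 0.36, 0.57 and 0.21 in C57BL/6J and 0.48, 0.26 and 0.36 in BTBR, a difference of -0.01 ± 0.13. Vtn, which encodes vitronectin of the capillary matrix, differed by -0.01 ± 0.12. Anpep, the surface aminopeptidase of pericytes, differed by -0.15. Rgs5, a regulator of G protein signalling, differed by 0.44 on probe A_51_P354934, which read 0.00, 0.42 and 0.34 against 0.85, 0.60 and 0.63 without overlap (adjusted p = 0.197). Its other probe, A_52_P136782, differed by -0.11 with overlap, so the gene has no single direction here.

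Acta2 and Tagln, an actin and an actin-binding protein of smooth muscle, had lower means in BTBR on all 6 of their tested probes, and none passed. Tagln A_51_P450527 read 1.13, 1.35 and 2.16 in C57BL/6J and 1.15, 0.82 and 1.02 in BTBR. C57BL/6J 3 was the highest mouse and the strains overlapped (-0.55 ± 0.27, adjusted p = 0.396). Acta2 A_52_P420504 read 0.39, 0.83 and 1.58 against 0.68, -0.10 and 0.65, with C57BL/6J 3 again highest and BTBR 2 lowest (-0.52 ± 0.35, adjusted p = 0.556). The other Acta2 probes differed by -0.04, -0.72 and -0.66 and the other Tagln probe by -0.54, all with overlap. The 4 smooth muscle markers (Acta2, Tagln, Myh11 and Cnn1) summed to 2.37 to 3.19 in C57BL/6J and 2.39 to 2.55 in BTBR, where C57BL/6J 3 held the highest value.

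**Figure D3:**
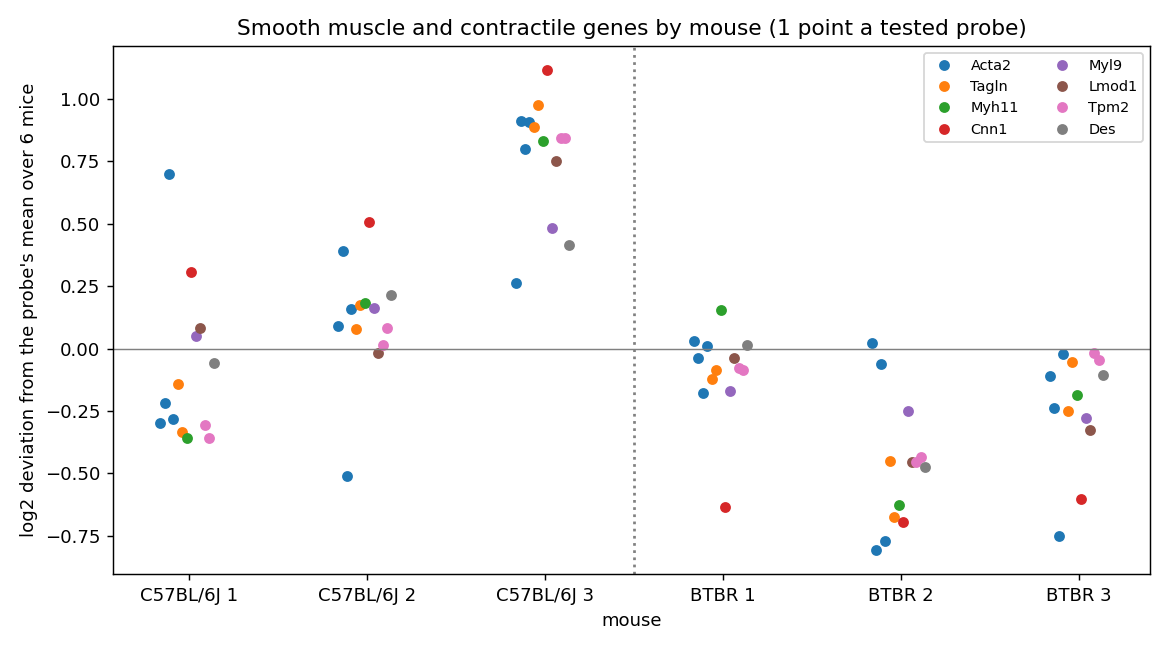
Log2 deviation of each tested probe of 8 smooth muscle and contractile genes from its mean over 6 mice (vertical axis), by mouse (horizontal axis), with 1 colour a gene. C57BL/6J 3 lies above 0 on every probe, with a smooth muscle score of 0.86, and BTBR 2 has the lowest score, -0.54.

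Leaving out C57BL/6J 3 and BTBR 2 together, a choice made after seeing the data, left 1 member probe past the threshold, that of Fli1. Without this pair of arrays Slco1c1 still differed by 0.65 (adjusted p = 0.0771), Ets1 by 1.06 (0.0592) and the Abcc9 probes by 1.01 (0.0655) and 0.80 (0.0545). These fits rest on 2 mice a strain, and 1008 probes passed over the whole array. The mural median was -0.01 without them.

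Within the slides, the member median was -0.18 on the slide with mice 1 and 2 and -0.07 on the slide with mouse 3, against 0.05 and 0 over all probes. The endothelial medians were -0.18 and -0.07, the barrier medians -0.13 and -0.01 and the mural medians -0.15 and -0.18. The slide of mouse 3 holds 1 mouse a strain and allows no test. In the fit of the first slide alone, 5 member probes passed, where 5.99% of all probes did, and they were those of the full fit. The arrays of this slide are part of the full fit, so the fits are not independent.

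Of the 35 genes, 6 lie on chromosome 6 and 4 on chromosome 9, and the probes that passed are all on these chromosomes. Slco1c1, Slco1a4, Kcnj8 and Abcc9 lie within 1.03 Mb of each other. In the window from 500 kb before to 500 kb after them (chr6:141011731-143038140, mm9), 4 of 23 tested probes passed, and 3 of these were the member probes around which the window was drawn. Of the 16 probes of other genes in it 1 passed, where the share over all probes was 5.44%. It was a probe of Recql, a DNA helicase gene, higher in BTBR by 1.55 ± 0.18 (adjusted p = 0.00458), while the other Recql probe differed by -0.60 (adjusted p = 0.114). The 4 vessel genes of the window did not share a sign: Slco1c1 and Abcc9 had higher means in BTBR, and Slco1a4 and Kcnj8, which did not pass, had lower ones.

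Fli1 and Ets1 are neighbours as well, within 0.34 Mb on chromosome 9. In their window 2 of 7 tested probes passed, and both are the member probes described above, of opposite sign, for which the window was drawn. Of the other 2 probes 0 passed, against 5.44% of all probes.

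**Figure D4:**
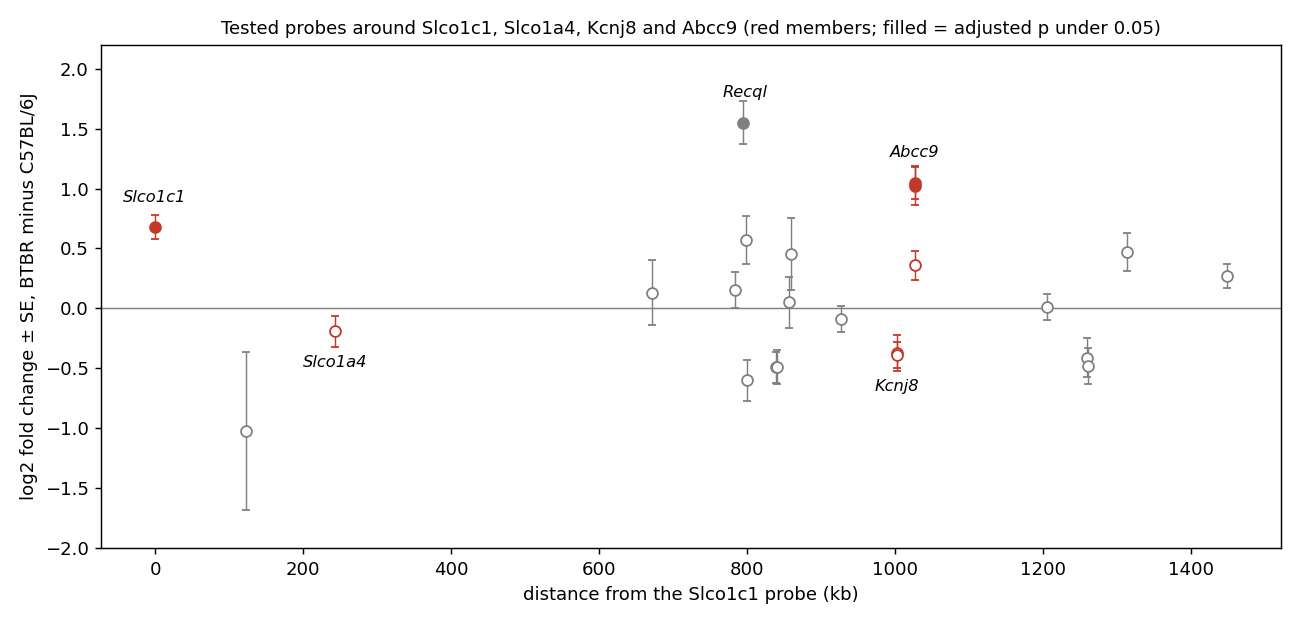
Log2 fold change with its standard error (vertical axis) of the 23 tested probes around Slco1c1, Slco1a4, Kcnj8 and Abcc9, by distance from the Slco1c1 probe in kb (horizontal axis); members are red, other genes grey and filled points have an adjusted p under 0.05. Slco1c1 (0.68), Recql (1.55) and 2 probes of Abcc9 (1.05 and 1.02) are filled, and Slco1a4 and Kcnj8 lie below 0.

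Since the ETS factors Fli1 and Ets1 are among the members, the promoter windows of the vessel genes were read for the ETS core AGGAAG on both strands. RefSeq promoters of the GRCm38.p6 assembly, from 250 bases before to 50 after each transcript start, matched 23 of the 35 genes with 29 windows. The core was found in 9 of 13 endothelial windows (69.2%), in 6 of 10 barrier windows (60%) and in 0 of 6 mural windows, against 11613 of 32851 windows of all genes (35.4%). The same windows were read for another motif, the 10-base CArG box. It was found in 0 of the 29 member windows, against 535 of 32851 windows of all genes (1.63%). Some genes have several windows, and a match is a description of the letters only.

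The 250 bases before the start are printed for Slco1c1, the barrier gene that passed, and for Tie1 and Emcn, the matched endothelial genes with the largest differences without overlap. Capitals mark the core or its reverse complement CTTCCT. The windows are chr6:141524104-141524353 (plus strand, 1 match beginning 128 bases before the start), chr4:118489850-118490099 (minus strand, 1 match, 219 bases before) and chr3:137340828-137341077 (plus strand, 2 matches, 174 and 93 bases before):
Slco1c1 promoter: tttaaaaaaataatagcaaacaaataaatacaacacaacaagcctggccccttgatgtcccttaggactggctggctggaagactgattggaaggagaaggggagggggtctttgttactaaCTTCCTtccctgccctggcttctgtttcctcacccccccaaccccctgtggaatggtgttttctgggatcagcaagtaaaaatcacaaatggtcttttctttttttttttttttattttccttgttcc
Tie1 promoter: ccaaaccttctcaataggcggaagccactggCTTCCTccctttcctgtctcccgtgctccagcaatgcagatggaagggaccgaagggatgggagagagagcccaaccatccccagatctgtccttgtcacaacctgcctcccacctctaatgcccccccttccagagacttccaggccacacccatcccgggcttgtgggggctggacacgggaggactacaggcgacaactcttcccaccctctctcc
Emcn promoter: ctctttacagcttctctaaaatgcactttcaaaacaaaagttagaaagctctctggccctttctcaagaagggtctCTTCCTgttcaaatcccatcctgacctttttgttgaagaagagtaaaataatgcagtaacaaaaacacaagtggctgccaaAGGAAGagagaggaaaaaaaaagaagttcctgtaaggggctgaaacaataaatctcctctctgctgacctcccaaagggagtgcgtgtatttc
The 3 genes with a core in these windows differ in direction between strains: Slco1c1 was higher in BTBR, while the values of Tie1 and Emcn were lower without passing the test. The window of Abcc9, a mural gene that passed, held 0 matches and is not printed.

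A wider list of 138 vascular genes outside the 35 covered VEGF, angiopoietin, PDGF, TGF-beta, Notch and Wnt signalling and further endothelial, transporter and mural genes. It had 188 tested probes of 129 genes, of which 7 passed (3.72%, against 5.44% of all probes), 3 higher and 4 lower in BTBR, with a median of -0.03. Lower were Adgrf5, an adhesion G protein-coupled receptor of endothelium (-2.47 ± 0.26, adjusted p = 0.00314), Cnn1, the smooth muscle calponin (-1.29 ± 0.21, 0.0202), Nrp1, a VEGF coreceptor (-1.57 ± 0.30, 0.0338), and Sox7, a SOX factor of endothelium (-0.58 ± 0.12, 0.0481). Nrp1 differed by 0.28 and 0.29 on its other probes, and Sox7 by -0.12 on its second. The Nrp1 probe that passed was dim, at 11 to 95.3 signal units. It was well above background on 3 C57BL/6J arrays and 2 BTBR arrays. Higher were Marveld2, which encodes tricellulin of tight junctions (1.07 ± 0.15, 0.0103), Mfsd2a, the lipid transporter that limits vesicle traffic across the barrier (0.76 ± 0.11, 0.0119), and Slc16a1, a monocarboxylate transporter (0.85 ± 0.16, 0.0312).

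Adgrf5 read -1.20, -1.16 and -1.26 in C57BL/6J and -3.59, -3.20 and -4.25 in BTBR. Mfsd2a read 1.82, 1.90 and 1.81 against 2.59, 2.73 and 2.48, nearly the same size and direction as Slco1c1. The strains did not overlap in either gene. Slc16a1 passed on 1 probe and differed by 0.13 and 0.08 on the others, and the second Marveld2 probe differed by 0.86 (adjusted p = 0.0554). Cnn1 was the smooth muscle gene that passed, where Acta2 and Tagln did not: it read -2.29, -2.09 and -1.48 in C57BL/6J and -3.23, -3.29 and -3.20 in BTBR. Slc2a1, the glucose transporter of the barrier, differed by 0.11 (adjusted p = 0.817). None of the 7 passed with normexp. In that fit 9 of the 188 tested probes had an unadjusted p under 0.05, and the share over all probes was not counted. The normexp differences were 0.82 for Mfsd2a, -0.57 for Sox7, -1.82 for Adgrf5, -1.02 for Cnn1 and 0.67 for Slc16a1, and smaller than in the main fit by over 1.5 times for Marveld2 (0.42) and Nrp1 (-0.71). With the main background correction, leaving out any 1 mouse except C57BL/6J 3 left 2 to 4 of the list past the threshold. Over all probes 2.86% to 4.9% passed in those fits.

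**Figure D5:**
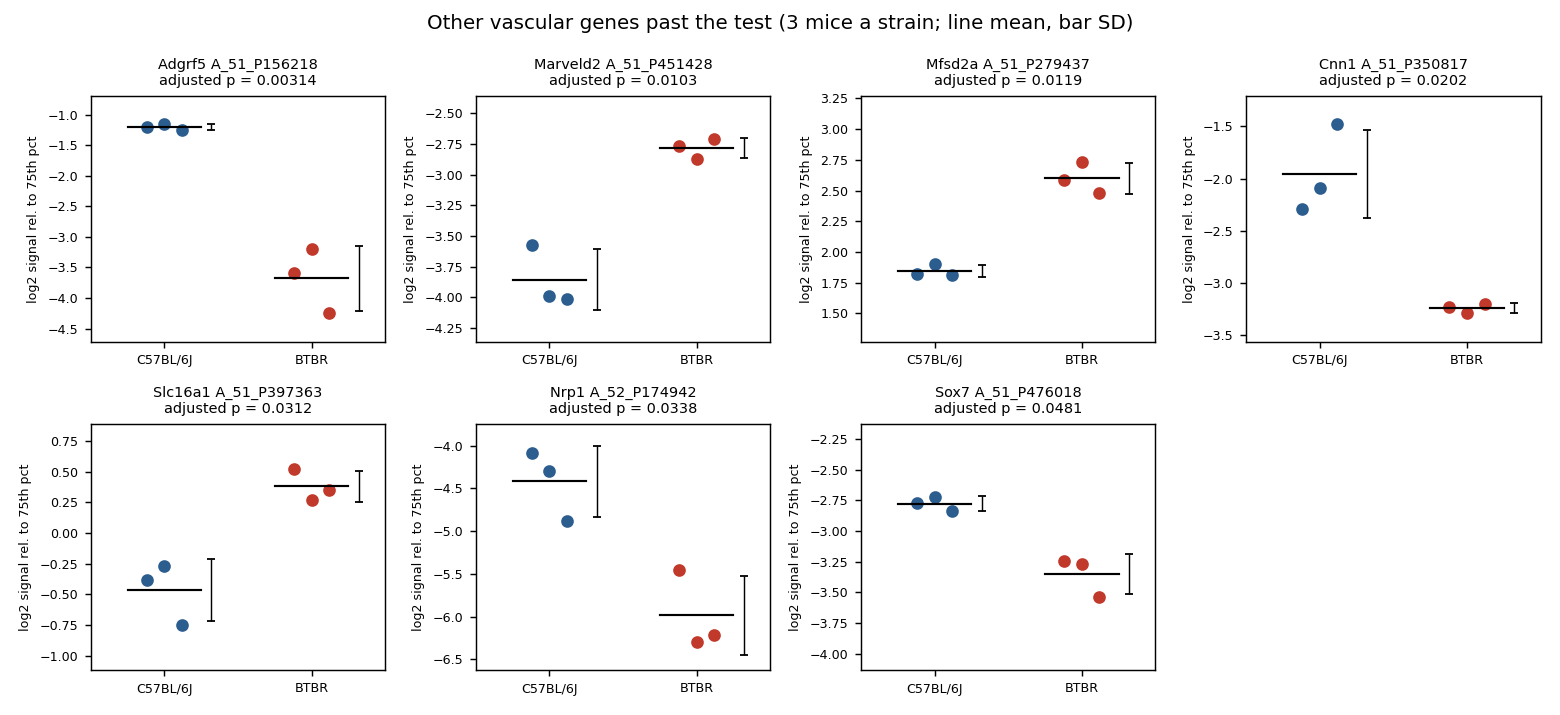
Log2 signal relative to the array's 75th percentile (vertical axis) of the 7 probes of the wider vascular list with an adjusted p under 0.05, 1 point a mouse, with the strain mean as a line and the SD as a bar. Adgrf5, Cnn1, Nrp1 and Sox7 lie lower in BTBR and Marveld2, Mfsd2a and Slc16a1 higher, without overlap between the strains.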

How the data were processed

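RNA was measured on Agilent 1-colour arrays of 60-base probes, 1 array a mouse, from 0.5 µg of RNA, per the labels. The deposited scanner files hold intensity values on a linear scale, and per the file headers the scans were read with version 10.7.3.1 of Agilent Feature Extraction, where the submitters' processing notes name version 9.1. The authors' deposited series matrix holds log2 values whose scaling and centring are not given in the sources used here; its column medians were 8.82 to 8.83, its strain differences correlated with the main ones at 0.895 across probes (slope 0.549), and it served as an alternative.

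The 75th percentile of an array's 41174 probes was subtracted from its log2 background-subtracted signals. Spots with an outlier flag were left out where the probe had another spot. No probe was saturated. The contrast BTBR minus C57BL/6J was fitted over the 30011 tested probes without covariates, using limma 3.58.1 (R 4.3.3; data.table package, version 1.17.8) and a Benjamini-Hochberg threshold of 0.05. Probes were kept separate and every one of a member is reported. A member has its value in each array printed where a probe passed, where the strains did not overlap or where it was among the 3 smallest p of its group; of the wider list, genes that passed are named. Other genes named, and the windows around members, were chosen after their values were seen. The members and lists were chosen with earlier results of these data known. Promoters and motifs were read with Python 3.11.15 and pandas 2.3.3, and figures were drawn with matplotlib 3.10.9.

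Mice 1 and 2 of both strains shared slide 1, and mice 3 shared slide 2. Replicate numbers were not used as pairs in the main fit. On simulated data for this comparison, with 30011 probes, recovery was 4% for 1.5-fold changes, 42% for 2-fold and 86% for 4-fold ones, and 3.45% of calls were false. The simulation changed fewer probes than passed in the real data. It drew noise independently for each probe, without differences shared by the probes of an array. Its rates therefore need not hold for the real data. The BTBR genome and the exon, intron or UTR placement of probes were not used here, so a match of probes to BTBR sequence was not tested. Alternatives covered background correction, scaling, the dim-probe filter, flagged spots, the authors' values, the variance prior, array weights, 1 probe a gene, blocks for slide and replicate number, and leaving out mice.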

Additional observations from a re-analysis of the deposited data

How the results depend on the processing

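On simulated data 3 mice a strain recovered 4% of 1.5-fold changes, and this rate need not hold for the real data. The number of passing probes moved with the background correction. With normexp background correction 170 probes passed in all with limma, and 0 of the members, the endothelial, barrier and mural groups or the wider vascular list. An unadjusted p under 0.05 was reached by 9 of 56 member probes and 9 of 188 of the wider list. The share of all probes with such a p was not counted in that fit. Of the probes past the threshold 74.1% were lower in BTBR, against 59.7% in the main setting, 48.7% with array weights and 49.9% within slide 1. With normexp the Ocln difference turned to -0.06, and 9 of 56 member probes changed sign. Member probes above background on 0 arrays differed by -0.32 to -0.41 with this correction, so signals at background level were also lower in BTBR. With array weights 3928 probes passed in all, 11 of the members, 6 endothelial, 4 mural and 20 of the wider list. With the brightest probe of each gene these counts were 938, 2, 1, 0 for the mural group and 5. No filter on dim probes left 4 of the wider list. Without C57BL/6J 3 and BTBR 2 the counts were 1008 in all, 1 member, 1 endothelial, 0 barrier, 0 mural and 2 of the wider list.

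Leaving out 1 mouse gave 858 to 1472 probes in all, 2 to 5 members, 1 to 2 endothelial, 0 to 1 barrier, 1 to 2 mural and 2 to 7 of the wider list. The lowest counts of members were without BTBR 1 (2) and without C57BL/6J 1 (3), and the barrier count was 0 without either of these or C57BL/6J 2. The wider list had 4 without C57BL/6J 1, 2 without C57BL/6J 2, 2 without BTBR 1, 3 without BTBR 2 and 4 without BTBR 3. Same-numbered mice correlated at 0.03, -0.17 and -0.08 in their deviations from the strain means. These correlations rest on 3 mice a strain and cannot show whether mice were paired in handling. With the replicate block 922 probes passed in all, 3 members, 1 endothelial, 0 barrier and 2 mural, and Slco1c1 (adjusted p = 0.0845) and Ets1 (0.0627) did not. Fli1 A_51_P370600 passed in 19 of 20 alternatives, Slco1c1 in 14 of 20, Ets1 A_52_P232830 in 15 of 19 and the Abcc9 probes in 17 and 15 of 19, with no sign change in these probes. The cause of these shifts was not tested.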
